A study of Mus musculus with 3 samples.

Results

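B cells past the surrogate light chain stage and short of the plasma cell stage, as judged by a rule on a few genes, were picked out of 3 single-cell RNA libraries of mouse tibial marrow. A barcode was taken when it had at least 500 detected genes, at most 10% mitochondrial UMIs, at least 2 UMIs of Cd79a and at least 1 of Ms4a1. A UMI (unique molecular identifier) stands for 1 captured transcript. It also had to hold 0 UMIs of Vpreb1 and Igll1 together, fewer than 20 of Jchain, 0 of Cdh5 and at most 5 of Cxcl12. The rule found 216 of the 12790 barcodes that passed the filters, and 15624 barcodes were deposited in all. All 3 libraries came from C57Bl/6JCrl mice that were given tamoxifen by gavage, with 1 library per genotype. WT was the wild type, FLOX carried Vegfc flox/flox with no Cre named, and VC was Cdh5CreERT2;Vegfc flox/flox. In VC a tamoxifen-activated Cre is driven by the promoter of Cdh5, the gene of VE-cadherin, so the intended target is endothelium and not the B cell. The material is labelled as LepR-positive and endothelial cells, CD45 was among the antibodies used to stain it, and B cells are not among the cells that label names. The gates of the sort and how many animals were used are not stated in the labels. With 1 library per genotype no test was possible, and genotype, animal and preparation cannot be told apart.

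B cells form in the marrow from precursors that first assemble a heavy chain and then a light chain. The newly formed immature cell carries surface IgM and Cd93, leaves for the spleen, and on maturing gains IgD, the chemokine receptors Ccr7 and Cxcr5 and a full set of MHC class II molecules, with which it presents antigen to helper T cells. Some mature cells recirculate back into the marrow. Interferon gamma acts through its own receptor and switches on Irf1, the GTPases that attack intracellular parasites and much of the antigen-presentation machinery, whereas type I interferons use another receptor and mainly induce antiviral genes.

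The WT library held 77 such cells, FLOX 76 and VC 63. Their summed depth was 361846, 283714 and 264364 UMIs, and the median cell had 4375, 3094 and 3758 UMIs over 1903, 1458 and 1656 genes. Levels are these sums as CPM (UMIs of a gene per 1000000 UMIs of the sum) with exact Poisson intervals at 95%, and shares carry exact Clopper-Pearson intervals at 95%, and 3 values in a row stand in the order WT, FLOX, VC. All intervals describe counting error and leave out the variation among animals. The markers of B cells were present. Cd79b, the partner of Cd79a in the B cell receptor and not used by the rule, had a UMI in 77 of 77, 75 of 76 and 63 of 63 cells. Cd74, the invariant chain of class II, had one in 84.4%, 86.8% and 84.1% of cells. The adaptor Bank1 stood at 282, 388 and 329 CPM. Ighm, the heavy chain of IgM, had a UMI in all 216 cells. T and NK cell markers summed to 1 UMI over the 3 libraries and monocyte and dendritic markers to 3, 2 and 1 UMIs, with Csf1r, Siglech, Itgax and Flt3 at 0 throughout. Xist was at 0 in all 3 libraries. Between 5 and 10 barcodes were shared by any pair of libraries, and 0 of them was a B cell.

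The edges of the rule were thin except for Ms4a1. The cut at Cd79a left 5 cells at 2 UMIs just inside and 4 at 1 UMI just outside. At Ms4a1, 33 cells held exactly 1 UMI, while 163 WT, 50 FLOX and 26 VC barcodes met every other condition with 0. Only 1 cell lay inside the Jchain limit at 5 to 19 UMIs, and 13 barcodes were lost for 1 UMI of Cdh5.

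2 barcodes carried more than their share. A FLOX barcode had 42316 UMIs, 72.5% of them from immunoglobulin genes, with 3295 UMIs of Ighg3, 26321 of Igkc, 233 of Slpi, 95 of Xbp1, 8 of Jchain and 1 of Ms4a1, and it supplied 14.9% of all UMIs of the FLOX cells. Its immunoglobulin share was nearer to the median of FLOX barcodes chosen by Jchain, at the plasma cell end (56.3%), than to that of FLOX B cells (2.23%). It met the rule and was kept in the main values. A WT barcode had 21645 UMIs, among them 100 of Mki67 and 104 of Top2a, genes of dividing cells, with 1 of Ms4a1, and supplied 5.98% of the WT sum. Calls of named genes that were lost without the first, or without it and all dividing cells, are marked as such. RNA of other cells was also present to unequal degrees. Markers of neutrophils summed to 699, 293 and 265 CPM, those of red cells to 240, 42.3 and 87.0, and those of endothelium to 450, 321 and 306, and these lists were highest in WT. Stromal markers, at 24.9, 145 and 49.2 CPM, and plasma cell markers, at 619, 1205 and 734, were highest in FLOX. Leaving out cells with at least 3 UMIs of other blood cells took the B cells from 1.78% to 0.718% of filtered WT barcodes. Results that moved in that setting are given at the end. The part of endothelial, stromal and plasma cell RNA in the results was not tested. Vegfc, the gene floxed in FLOX and VC, had 0, 1 and 0 UMIs in the B cells, which cannot show a deletion. In barcodes chosen by endothelial genes it had 66, 20 and 5 UMIs, or 1.76, 0.723 and 0.244 CPM.

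B cells made up 1.78% of filtered WT barcodes (interval 1.41 to 2.22), 1.33% of FLOX (1.05 to 1.66) and 2.30% of VC (1.77 to 2.93). The FLOX and VC intervals did not overlap, and WT overlapped both. Barcodes of the stage before, chosen by Cd79a with Vpreb1 or Igll1, numbered 81, 29 and 6, which is 1.88%, 0.506% and 0.219% of the same totals. Barcodes chosen by Jchain, at the plasma cell end, numbered 21, 251 and 82. The 3 B lineage groups thus stood in different proportions in each library, with B cells the most even of them. The sort can set all of these shares.

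WT cells carried more RNA of immature-stage genes and less of mature-stage genes than either other library. Cd93, the complement-receptor-like protein used to mark immature and transitional B cells, stood at 304 (interval 250 to 366), 155 (113 to 208) and 129 CPM (89.1 to 180). FLOX and VC overlapped, and WT lay above both. Myb, a transcription factor of proliferating lymphoid precursors, stood at 409, 95.2 and 159 CPM. Il7r, the receptor for the growth factor of B cell precursors, stood at 193, 84.6 and 94.6 CPM, again with WT apart from both. Chchd10, a mitochondrial protein placed on the immature list, stood at 1501, 934 and 847 CPM. A gene was measured when it had a mean of at least 50 CPM and 50 UMIs over the libraries, and it was called high or low in a library when it was at least 1.5-fold away from both others and by more than they differed from each other. Of 3034 measured genes 236 were called higher in WT (7.78%) and 110 lower (3.63%), 45 higher in FLOX (1.48%) and 216 lower (7.12%), and 95 higher in VC (3.13%) and 85 lower (2.8%). Without the FLOX immunoglobulin barcode 3003 genes were measured, of which 181 were called higher in WT (6.03%) and 134 lower (4.46%). FLOX then had 52 higher (1.73%) and 111 lower (3.70%), and VC had 60 higher (2.00%) and 123 lower (4.10%). A sparse gene can reach the minimum through the library in which it is high, so counts of listed genes that were called are descriptions. Cd93, Myb, Il7r and Chchd10 were the immature-list genes called higher in WT, which is 4 of 10 measured among 15 listed, beside the 7.78%. Without the FLOX immunoglobulin barcode Chchd10 stood at 1085 CPM in FLOX and was not called, which left 3. Without dividing cells as well, 4 of 10 immature-list genes were called higher in WT. Rag1, a subunit of the recombinase that rearranges receptor genes, ran otherwise and was called higher in VC at 227 CPM against 144 in WT and 120 in FLOX. Its VC interval overlapped that of WT, and the call was lost without the 2 odd barcodes and other dividing cells, at 161, 152 and 230 CPM. Vpreb3, a chaperone of the immature receptor, stood at 2888, 1847 and 1929 CPM and Sox4 at 434, 441 and 488.

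The mature naive list ran the other way. Ltb, the lymphotoxin beta with which B cells help to organise follicles, stood at 205 (161 to 257), 441 (367 to 525) and 533 CPM (449 to 629). Ccr7, the receptor that guides cells to T cell zones, stood at 85.7, 180 and 208 CPM with WT below both others. Fcmr, the Fc receptor for IgM, stood at 279, 419 and 496 CPM. Zfp318, which is needed to splice the IgD transcript, stood at 69.1, 159 and 148 CPM. Cxcr5, the receptor for entry into follicles, was low throughout at 35.9, 67.0 and 79.4 CPM, and its intervals overlapped. These 5 were called lower in WT of 14 measured among 18 listed, beside the 3.63%. Klf2, a factor of quiescent recirculating cells, stood at 696, 990 and 1358 CPM, with all 3 intervals apart, but was called lower in WT only without the immunoglobulin barcode, at 1164 CPM in FLOX. Cxcr5 fell short of the minimum when dividing cells were left out as well. Ighd itself differed little, at 260, 349 and 280 CPM with overlapping intervals, and so did the BAFF receptor Tnfrsf13c at 558, 582 and 518. Over the list the median log2 ratio was 0.51 for VC over WT and 0.19 for VC over FLOX, where all measured genes had medians of -0.09 and 0.12. The immature list had medians of -0.58 and 0.15.

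**Figure D1:**
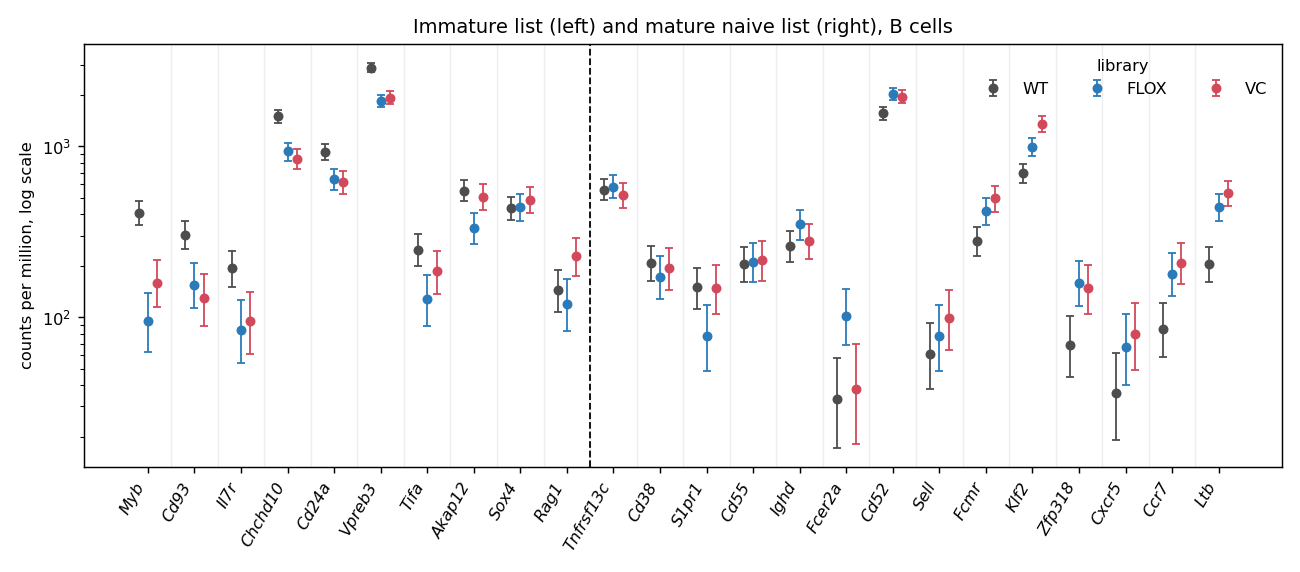
CPM (log scale) of each measured gene of the immature list, left of the dashed line, and of the mature naive list, right of it, summed over the B cells of WT (grey), FLOX (blue) and VC (red). Bars are exact 95% Poisson intervals for counting error, and within each list genes run from the lowest to the highest VC over WT ratio. WT is the highest library for Myb, Cd93 and Il7r and the lowest for Ltb and Ccr7.

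Counted by cell, after every cell was thinned at random to 2000 UMIs, a Cd93 UMI was found in 31 of 76 WT cells (29.6% to 52.7%), 18 of 74 FLOX cells (15.1% to 35.7%) and 12 of 63 VC cells (10.2% to 30.9%). Thinning left out 1 WT and 2 FLOX cells. WT had the highest share, but its interval overlapped both others. In barcodes chosen by neutrophil genes the same shares were 3.90%, 4.88% and 0%, but in endothelial barcodes they were 65.5%, 63.9% and 68.0%. The part of endothelial RNA in the Cd93 values of the B cells was not tested. Without thinning the B cell shares were 58.4%, 32.9% and 33.3%. Myb UMIs were found in 43.4%, 17.6% and 17.5% of thinned B cells, with WT above both, and in 16.2%, 11.4% and 6.67% of neutrophil barcodes. An Ighd UMI was found in 27.6%, 35.1% and 38.1%, with broad overlap, against 0.813% or less in the neutrophil barcodes. Splitting all cells by these marks gave 45 WT, 25 FLOX and 21 VC cells with a Cd93 UMI, and 19, 30 and 21 cells with an Ighd UMI and no Cd93 UMI. Another 13, 21 and 21 cells had neither. Both classes depend on depth, which was lowest in FLOX.

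Germinal centre and switched cells were scarce. Of 7 germinal centre genes none reached the minimum, so they are not described further. A UMI of a switched heavy chain was seen in 2 of 77, 26 of 76 and 19 of 63 B cells, but also in 8 of 158, 50 of 127 and 14 of 61 of the neutrophil barcodes of the same libraries, whose median depths were 14676.5, 10536 and 11866 UMIs. The B cell shares were thus at or near the background, and only 1 FLOX and 2 VC cells had 3 or more such UMIs. Light chains stood clear of it. At least 10 Igkc UMIs were found in 81.8%, 76.3% and 73.0% of B cells, against 0%, 18.9% and 0% of the deeper neutrophil barcodes. At least 10 UMIs of the lambda constant genes Iglc1, Iglc2 and Iglc3 were found in 31.2% (21.1 to 42.7), 44.7% (33.3 to 56.6) and 54.0% of B cells (40.9 to 66.6), against 0%, 0% and 1.64%. The share was lowest in WT, with intervals that overlapped. Cells that passed both limits numbered 13, 20 and 20.

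Class II genes were lower in WT than in both other libraries, and FLOX and VC stood together. Cd74 was at 3231 (3048 to 3421), 5837 (5559 to 6125) and 6294 CPM (5996 to 6604). WT lay far below, and the other intervals overlapped. H2-Aa, the alpha chain of the I-A molecule, was at 442, 948 and 987 CPM. Its partner H2-Ab1 was at 497, 772 and 847 CPM, and H2-Eb1, the beta chain of I-E, was at 343, 793 and 775 CPM. For each of these 3 the WT interval lay below both others. The peptide-editing genes were sparser. H2-DMb2 stood at 82.9, 152 and 148 CPM, H2-Oa at 41.5, 145 and 83.2, and H2-Ob at 116, 183 and 212. WT overlapped both others for H2-DMb2, VC for H2-Oa and FLOX for H2-Ob. These 7 were called lower in WT of 10 measured among 11 listed, beside the 3.63% over all genes, and none was called in VC or FLOX. All 10 were lowest in WT, beside 23.2% of all measured genes. The master regulator Ciita was at 58.0, 67.0 and 60.5 CPM and the protease Ctss at 210, 219 and 291, both with overlapping intervals. The list median was 0.85 on the log2 scale for VC over WT, 0.76 for FLOX over WT and 0.08 for VC over FLOX. Without the FLOX immunoglobulin barcode 6 genes were called lower in WT, and H2-Oa was called higher in FLOX. Without dividing cells as well, 8 of 10 were called lower in WT and 0 higher in FLOX.

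Class II RNA was higher in Ighd cells than in Cd93 cells of each library. Summed over the list, cells with an Ighd and no Cd93 UMI had 11552, 14452 and 14030 CPM, while cells with a Cd93 UMI had 2333, 6290 and 6901. The log2 ratio of VC over WT was 1.56 in the Cd93 cells and 0.28 in the Ighd cells, a difference that was not tested. In the Cd93 cells the WT interval of 2132 to 2547 CPM was well below the 6358 to 7478 of VC. In the Ighd cells the WT interval of 10878 to 12256 still ended below the 13281 at which VC began. Beside this, the mature list in the Cd93 cells stood at 3326, 5621 and 6148 CPM, and in the Ighd cells at 7318, 7748 and 6833. Its part in the class II values was not tested. Per cell, thinned to 2000 UMIs, the median class II count was 3, 11 and 12, and the highest cells held 52, 79 and 78. H2-Aa was found in 18.4%, 40.5% and 39.7% of thinned cells and in 0%, 0% and 1.67% of neutrophil barcodes.

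**Figure D2:**
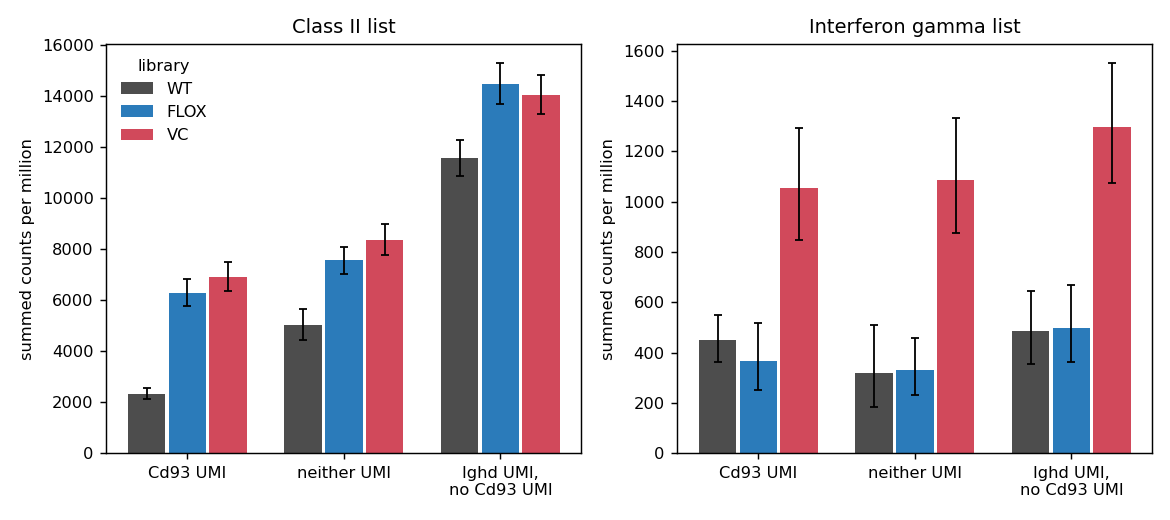
Summed CPM of the class II list (left) and of the interferon gamma list (right) in B cells with a Cd93 UMI, with neither a Cd93 nor an Ighd UMI, and with an Ighd but no Cd93 UMI, in WT (grey), FLOX (blue) and VC (red). Error bars are exact 95% Poisson intervals for counting error. Class II runs from 2333 to 6901 CPM in the Cd93 cells and from 11552 to 14452 in the Ighd cells, and the interferon gamma list is highest in VC in each of the 3 classes.

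Class II promoters carry a conserved Y box, the CCAAT element bound by NF-Y, close to the start of transcription. The 150 bases before the start in RefSeq (GRCm38.p6) are shown for the alpha chain of I-A and the beta chain of I-E, as the classical genes lowest in WT, with ATTGG or its reverse complement in capitals. H2-Aa is at chr17:34287824-34287973 on the minus strand and H2-Eb1 at chr17:34305717-34305866 on the plus strand.
H2-Aa: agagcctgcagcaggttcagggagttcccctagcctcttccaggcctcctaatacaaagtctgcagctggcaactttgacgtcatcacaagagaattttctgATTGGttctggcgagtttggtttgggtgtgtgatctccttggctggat
H2-Eb1: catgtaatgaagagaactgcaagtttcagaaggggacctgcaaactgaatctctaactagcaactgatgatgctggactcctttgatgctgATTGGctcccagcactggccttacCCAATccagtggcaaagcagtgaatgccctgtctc
The motif starts 48 bases before the start of H2-Aa, and 59 and 35 bases before that of H2-Eb1, the second on the other strand. Of the 10 measured class II genes 7 had a promoter in the table, in 8 windows, and 5 genes held ATTGG on either strand, where 24.5% of all 32851 windows of that length held it. A match describes letters only.

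Genes that interferon switches on had their highest levels in VC. Irf1, a transcription factor of the interferon response, had 27, 26 and 52 UMIs, or 74.6 (49.2 to 109), 91.6 (59.9 to 134) and 197 CPM (147 to 258), 2.64-fold over WT and 2.15-fold over FLOX. Ifi47, an immunity-related GTPase, stood at 47.0, 45.8 and 140 CPM. For both the WT and FLOX intervals overlapped and VC lay above both. Of an interferon gamma list of 20 genes 3 were measured, and all 3 were called higher in VC. Ifi47 reached the minimum through VC alone, so this count is not read against the 3.13%. The others were too sparse, such as the guanylate-binding proteins Gbp4, with 16, 2 and 21 UMIs, and Gbp7, with 5, 2 and 15. Summed over all 20 genes, the list stood at 439 (374 to 513), 395 (325 to 475) and 1150 CPM (1024 to 1287).

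Genes more typical of type I interferon were also higher in VC, though few were abundant. Ifi27l2a, a small interferon-induced protein, had 98, 81 and 173 UMIs, or 271, 285 and 654 CPM, with VC apart. Bst2, tetherin, which holds budding virus at the cell surface, stood at 60.8, 45.8 and 113 CPM, with overlapping intervals, and was not called higher in VC without the odd barcodes and dividing cells. These 2 of 5 measured genes, from a list of 24, were called higher in VC, beside the 3.13% over all genes. All 5 were highest there, beside 33.3% of all measured genes. Ifi203 stood at 370, 278 and 503 CPM, Trim30a at 99.5, 49.3 and 155, and the RNA sensor Ddx58 at 108, 88.1 and 125. The classical antiviral genes were almost undetected. Ifit1 was at 0 in all 3 libraries, Ifit3 had 0, 0 and 1 UMIs, Mx1 had 1, 1 and 2, and Irf7 had 0, 1 and 2. Isg15 had 2, 1 and 12 UMIs and Zbp1, a sensor of unusual nucleic acids, 5, 3 and 21. The type I list summed to 1094, 871 and 2012 CPM.

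**Figure D3:**
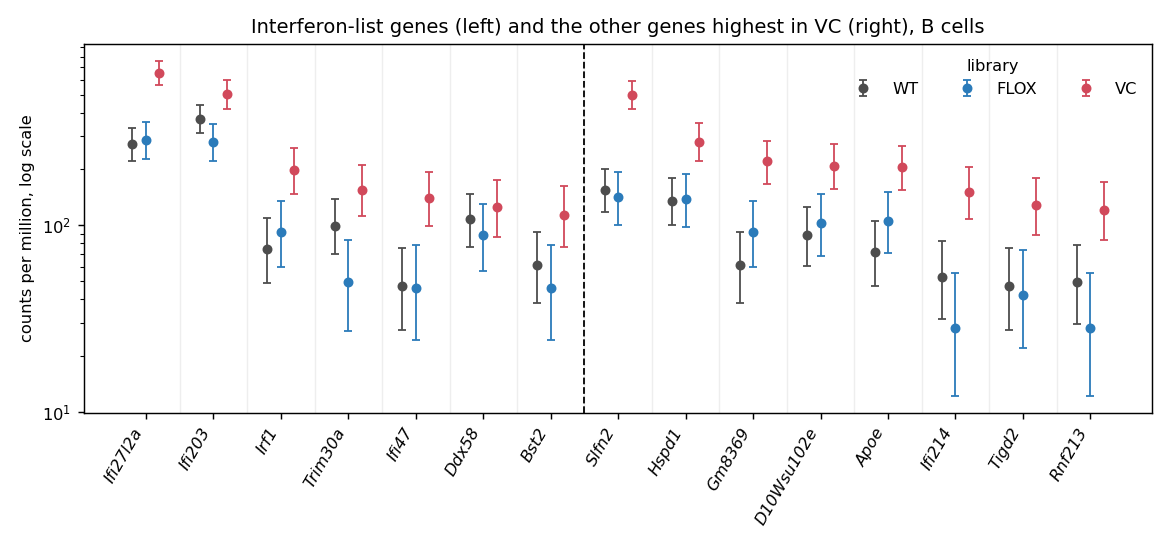
CPM (log scale) of 7 measured genes of the 2 interferon lists, left of the dashed line, and of the other 8 genes named as highest in VC, right of it, summed over the B cells of WT (grey), FLOX (blue) and VC (red). Bars are exact 95% Poisson intervals for counting error. VC is the highest library for every gene shown, and its interval overlaps that of WT for Ifi203, Trim30a, Ddx58 and Bst2.

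Outside the lists, the genes with the largest smaller ratio of VC to its controls included further interferon-inducible genes. Slfn2, a schlafen protein that maintains quiescence in lymphocytes, had 56, 40 and 132 UMIs, or 155, 141 and 499 CPM, 3.23-fold over WT and 3.54-fold over FLOX, and ranked first. Ifi214, a member of the interferon-inducible p200 family, stood at 52.5, 28.2 and 151 CPM. Rnf213, a giant interferon-induced ubiquitin ligase, stood at 49.7, 28.2 and 121 CPM. The rest were Tigd2 at 47.0, 42.3 and 129 CPM, Gm8369 at 60.8, 91.6 and 219, D10Wsu102e at 88.4, 102 and 208, the mitochondrial chaperonin Hspd1 at 135, 137 and 280, and the lipid carrier Apoe at 71.8, 106 and 204. With Ifi27l2a, Irf1 and Ifi47 these are among the 12 leading genes of 15 whose VC interval lay apart from both others. With mitochondrial UMIs held to 5%, Apoe was at 0.43 on the log2 scale over FLOX, and D10Wsu102e at 0.36 over WT and 0.24 over FLOX, short of the 1.5-fold rule. Without the immunoglobulin barcode Apoe stood at 71.8, 124 and 204 CPM and was called lower in WT in place of higher in VC. In the other direction the intervals were apart for Susd1 alone, a sushi-domain protein, at 77.4, 84.6 and 22.7 CPM.

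Promoter windows of the same kind are shown for Irf1, which is known for a gamma-activated site (GAS, TTCNNNGAA) in its promoter, and for Ifi214, one of the genes highest in VC with an interferon-response core (GAAANNGAA). Capitals mark a GAS pattern and a CCAAT box in Irf1 and the response core in Ifi214. Irf1 is at chr11:53769864-53770013 on the plus strand and Ifi214 at chr1:173535958-173536107 on the minus strand.
Irf1: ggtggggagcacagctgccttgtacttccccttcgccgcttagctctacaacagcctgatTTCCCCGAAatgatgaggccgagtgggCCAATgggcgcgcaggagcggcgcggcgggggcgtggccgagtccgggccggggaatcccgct
Ifi214: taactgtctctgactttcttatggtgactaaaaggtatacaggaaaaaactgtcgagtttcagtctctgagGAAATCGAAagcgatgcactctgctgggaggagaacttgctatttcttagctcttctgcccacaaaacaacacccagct
The GAS pattern starts 90 bases before this start of Irf1, and a second listed start of Irf1 has none. The response core starts 79 bases before the start of Ifi214. Of 16 genes, those measured on the interferon lists and those named as highest in VC, 13 had a promoter in the table, in 19 windows. A GAS pattern on either strand was found in 2 of these genes, Irf1 and Bst2, and a response core in 5, namely Apoe, Bst2, Ifi203, Ifi214 and Trim30a, and the matches of Bst2 overlap. Of all 32851 windows 4.09% held the first and 3.95% the second. Ifi47, Slfn2 and Rnf213 held neither in these windows, and Ifi27l2a had no entry.

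Single cells showed the same order. After thinning to 2000 UMIs, the median cell held 2, 2 and 4 UMIs of the interferon gamma and type I lists together, and the upper quartile was 4, 4 and 10. Cells with none numbered 12 of 76, 9 of 74 and 2 of 63. The VC values were spread over many cells. Ifi27l2a was found in 39 of 63 VC cells, of which the highest held 11.0% of its UMIs, and Slfn2 in 40, of which the highest held 10.6%. After thinning, Slfn2 was found in 19 of 76, 22 of 74 and 32 of 63 B cells, with VC apart from WT and overlapping FLOX. It was found in 0.481%, 1.02% and 2.16% of endothelial barcodes and in 59.7%, 61.8% and 65.0% of neutrophil barcodes. Neutrophil markers in the B cells summed to 699, 293 and 265 CPM, and the part of neutrophil RNA in the Slfn2 values was not tested.

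**Figure D4:**
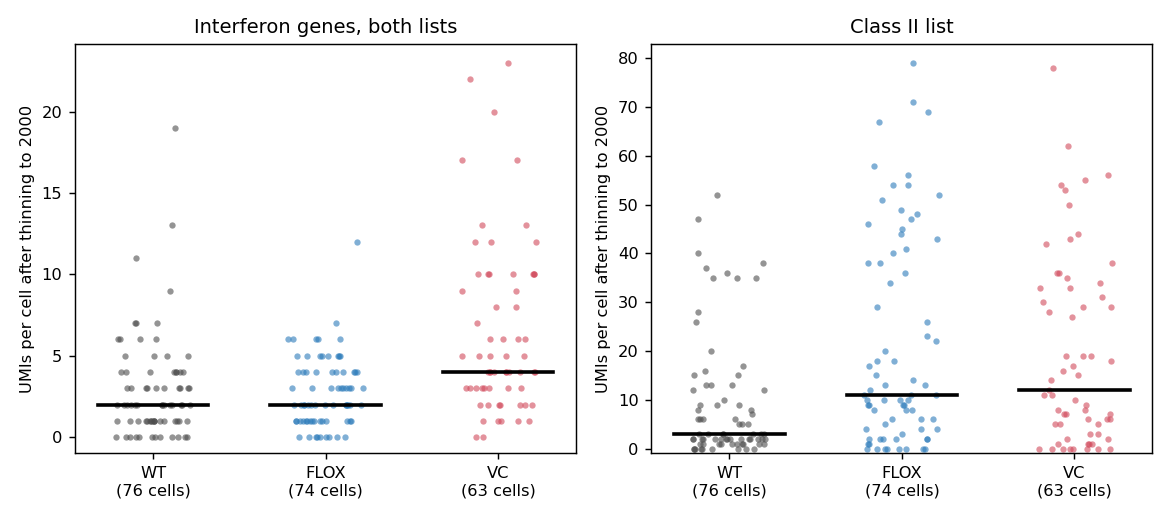
UMIs of the 2 interferon lists together (left) and of the class II list (right) in each B cell after thinning to 2000 UMIs, by library. Each point is a cell, points are spread sideways at random, and black lines are medians. The interferon medians are 2, 2 and 4 and the class II medians 3, 11 and 12 in WT, FLOX and VC.

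The interferon gamma list was also summed by the marks of maturation. In cells with a Cd93 UMI the interferon gamma list stood at 450 (364 to 549), 368 (253 to 517) and 1054 CPM (848 to 1294). In cells with an Ighd and no Cd93 UMI it stood at 484, 499 and 1296, and in cells with neither at 318, 331 and 1087. The VC interval lay above both others in these 3 classes, which depend on depth. In the cells of the first class that also had an Ighd UMI it stood at 515 (381 to 681), 415 (250 to 649) and 841 CPM (582 to 1175), with VC highest but overlapping both others. Receptors and signal carriers were sparse. Ifngr1, the ligand-binding chain of the interferon gamma receptor, stood at 66.3, 67.0 and 68.1 CPM. Its partner Ifngr2 was called higher in VC at 79.4 CPM against 52.5 and 52.9, and Irf9 at 121 against 80.1 and 63.4, both with overlapping intervals. Without the immunoglobulin barcode Ifngr2 stood at 62.1 CPM in FLOX and was not called. Jak1 stood at 207, 236 and 185 CPM, and the list held 6 measured genes of 10.

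Class I genes, which display internal peptides and respond to both interferon types, were all highest in VC by smaller margins. H2-Q7, a non-classical class I gene, stood at 163, 130 and 303 CPM, with VC apart from both. Psmb9 and Psmb10, subunits of the immunoproteasome, stood at 105, 120 and 197 CPM and at 127, 120 and 216 CPM, and H2-T23 at 158, 162 and 265. These 4 were called higher in VC of 11 measured, beside the 3.13% over all genes. All 11 were highest there, beside 33.3% of all measured genes. H2-K1 stood at 865, 1061 and 1388 CPM and H2-D1 at 1023, 1135 and 1577, both with VC above the other intervals, which overlapped. B2m, the shared light chain, stood at 959, 1043 and 1146 CPM. Tap1 was called lower in FLOX, at 42.3 CPM against 94.0 in WT and 110 in VC. Without the immunoglobulin barcode Psmb9 was not called, at 137 CPM in FLOX, which left 3 class I genes called higher in VC. Without dividing cells as well, 4 of 11 were called higher in VC.

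In VC the 2 interferon lists together stood at 13902 CPM in endothelial barcodes and at 3162 in B cells. Not every gene ran so. Slfn2 had 299 UMIs and Ifi27l2a 18 over 1683 VC endothelial barcodes, against 132 and 173 over 63 VC B cells. Each gene was set against Fabp4, an abundant endothelial transcript, in both. For the VC library the ratio of Irf1 to Fabp4 UMIs was 132 times as high in B cells as in endothelial barcodes, that of Ifi47 90.1 times and that of Slfn2 4926 times. Kdr and Stab2, endothelial genes used as a check, came to 0.699 and 1.70 times. Cxcl9 and Cxcl10, chemokines on the interferon gamma list, came to 0.938 and 1.62 times and Iigp1 to 1.90, and they had 6, 2 and 8 UMIs in VC B cells. Fabp4 had only 16 UMIs there, so these ratios are rough. They concern endothelial RNA alone, and the source of the interferon RNA in the B cell barcodes was not tested.

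The other cells of the marrow gave the B cell values their scale. Barcodes chosen by Cd79a with Vpreb1 or Igll1 had the interferon gamma list at 237, 286 and 1208 CPM, close to the B cells in VC, from 6 VC barcodes. Barcodes chosen by Cdh5 had it at 1500, 1459 and 10866 CPM and those chosen by Cxcl12 and Adipoq at 1186, 2304 and 8490. Barcodes chosen by S100a8 and S100a9 had 197, 193 and 538. In those chosen by Jchain VC did not lead, with 640, 290 and 417 CPM. The median share of their UMIs from immunoglobulin genes was alike in the libraries, at 57.4%, 56.3% and 55.4%. Class II was ordered otherwise. It stood at 14.2, 40.8 and 930 CPM in endothelial barcodes, whereas in B cells FLOX and VC overlapped at 9298 and 9884 CPM. WT was not the lowest in the other B lineage groups. Class II stood at 4624, 3946 and 3350 CPM in those chosen by Jchain. In those chosen by Cd79a with Vpreb1 or Igll1 it stood at 393, 366 and 432, with overlapping intervals.

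**Figure D5:**
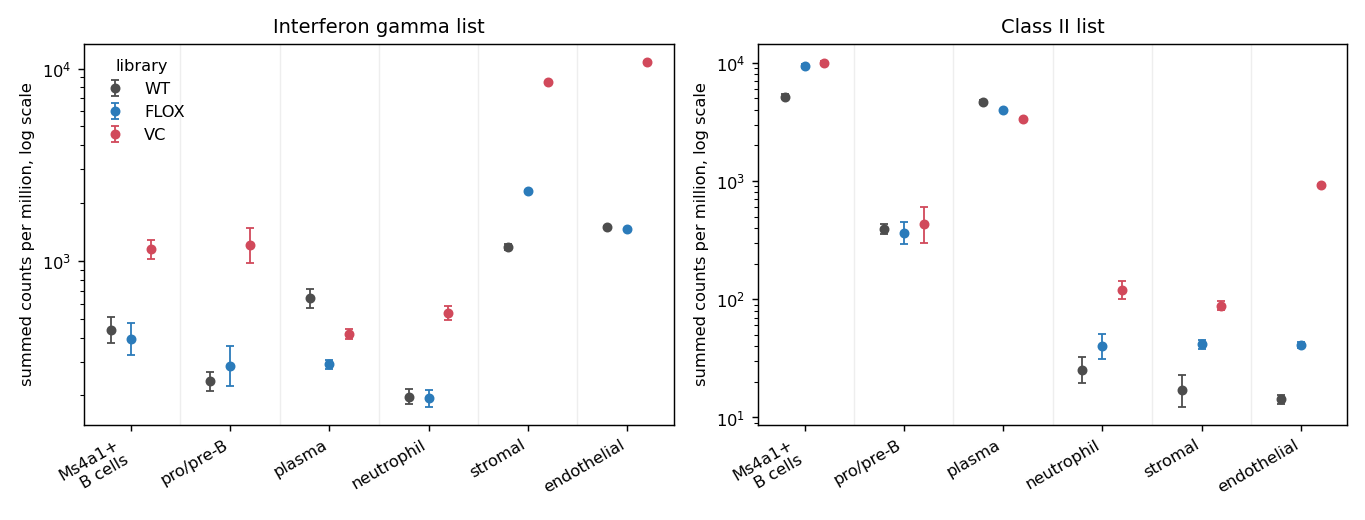
Summed CPM (log scale) of the interferon gamma list (left) and the class II list (right) in the Ms4a1-positive B cells and in barcodes chosen by pro/pre-B, plasma cell, neutrophil, stromal and endothelial genes, for WT (grey), FLOX (blue) and VC (red). Bars are exact 95% Poisson intervals for counting error. VC is the highest library for the interferon gamma list in every group but the plasma cell group, and B cells hold the highest class II sums.

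WT stood further from both others than VC did. Without the FLOX immunoglobulin barcode, 60 of 3003 measured genes were called higher in VC and 123 lower, and 181 were higher in WT and 134 lower. Leaving out cells with a Mki67 or Top2a UMI as well gave 54 and 100 for VC and 154 and 146 for WT, of 2729 genes. Every one of Irf1, Ifi47, Slfn2 and Ifi27l2a was called in VC in both settings. The 5 measured cell cycle genes were all called higher in WT, beside the 7.78% over all genes. The whole list summed to 786, 86 and 93 UMIs, so its genes could reach the minimum through WT. The WT barcode of 21645 UMIs held 100 of Mki67 and 104 of Top2a, and the next WT barcode held 11 and 3. Leaving out cells by Mki67 and Top2a, themselves on that list, left 1 measured, Hmgb2, a chromatin protein of cycling cells, which was not called and stood at 200 CPM in WT against 945 with them. Cells with a Mki67 or Top2a UMI numbered 7, 6 and 2. Top2a, Hist1h3c, Mki67, Pclaf, Hist1h1a, Stmn1, Hist1h4d and Hmgb2, the 8 genes furthest above both others in WT, all belong to this set of cell cycle and histone genes. Xbp1, the factor of the secretory programme, stood at 124, 430 and 87.0 CPM with the immunoglobulin barcode and at 112 in FLOX without it.

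Genes of the early-response and activation lists were among those lower in WT. Fos stood at 85.7 (58.2 to 122), 293 (233 to 363) and 382 CPM (311 to 464), and Junb at 287, 761 and 972 CPM. Of 11 measured immediate-early genes 8 were called lower in WT, beside the 3.63% over all genes, and the list summed to 5218, 7730 and 9366 CPM. Cd83, which steadies class II at the surface, stood at 30.4, 159 and 121 CPM, and Egr1, induced by receptor signals, at 334, 557 and 862. These were 2 of 5 activation genes called lower in WT of 8 measured. Hspa8, Dnaja1 and Hsph1 were the heat shock genes called so, of 8 measured, with Hspa8 at 647, 1205 and 1464 CPM. VC was the highest library for 10 of the 11 immediate-early genes and all 8 heat shock genes, beside 33.3% of all measured genes. Without the immunoglobulin barcode it was highest for 7 and 6 of them, beside 26.4%. Whether the libraries were handled alike was not tested. The 8 genes furthest below both others in WT were Fos and Cd83 with the zinc transporter Tmem163 at 27.6, 127 and 132 CPM, the lysophospholipid receptor P2ry10 at 19.3, 84.6 and 98.4, Neurl3 at 22.1, 81.1 and 106, Ddit3 at 27.6, 98.7 and 106, Gramd3 at 27.6, 88.1 and 87.0, and Phgdh, which starts serine synthesis, at 24.9, 77.5 and 94.6. Phgdh fell short of the minimum without the immunoglobulin barcode.

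Few genes of the core B cell lists were called, at shares near those over all genes (7.78% higher and 3.63% lower in WT). Of 16 B identity genes 1 was called, Cd74 lower in WT, and Cd79a, which the rule used, stood at 2833, 2855 and 3094 CPM. Of 16 receptor-signalling genes 1 was called, the adaptor Pik3ap1 higher in WT at 155 CPM against 77.5 and 71.9. The inhibitory receptors Cd22, at 238, 208 and 193 CPM, and Siglecg, at 600, 511 and 617, were not called, and none of their list was. Among 16 measured transcription factors, Ikzf1 alone was called, higher in WT at 500 CPM against 289 and 306. Without the immunoglobulin barcode it stood at 340 CPM in FLOX and was not called, and Irf8 was called lower in WT at 351 CPM against 534 and 571. Without dividing cells as well, 0 of the 16 were called lower in WT and 1 was called higher. Pax5, which commits cells to the lineage, stood at 978, 705 and 654 and Ebf1 at 2725, 1787 and 2432. Cxcr4, which holds cells in marrow through Cxcl12, was called higher in VC at 374 CPM against 191 in WT and 243 in FLOX, with the VC and FLOX intervals overlapping, and was not called higher in VC without the FLOX immunoglobulin barcode. Bcl2, which protects lymphocytes from death, was called higher in VC from 15, 11 and 25 UMIs, with overlapping intervals. Without that barcode it fell short of the minimum.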

How the data were processed

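The deposited matrices hold raw UMI counts per gene and barcode, which had not been normalised. Per the submitters' processing notes the authors used Cell Ranger 2.1.1, Seurat 3.1 and build mm10. Per the file headers the software version was 3.1.0. Each matrix lists 31053 genes. Barcodes were chosen by the rule stated above, and no annotation of cells was used. Counts were summed per library and scaled to CPM; a count of 0 stood at a floor of 3 UMIs in ratios. Python 3.11.15 with scipy 1.17.1 and scanpy 1.11.5 was used. The rule of size was also run on simulated Poisson counts. These held no variation among animals or cells, so the run cannot show how such variation affects the calls. Named genes are the 12 per direction with the largest smaller ratio of VC to both others among called genes with intervals apart, up to 8 per direction for WT, and members of the lists. Mitochondrial, ribosomal protein, immunoglobulin, sex-linked and other-cell genes stayed out of that ranking. Genes outside this rule were named after their values were seen. The members and lists were chosen with earlier results of these data known. Scrublet called 0 B cells as doublets, but its automatic threshold moved with numerical precision, so no call was used and doublets may remain. As an alternative the 5% of barcodes with the highest scores were left out, which took 1 WT and 1 FLOX B cell. Some genes are not reported here by name, and they remain in the counts and sums of their lists.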

Additional observations from a re-analysis of the deposited data

How the results depend on the processing

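With 1 library per genotype no replicate could be left out and no value has a replicate check, and depth limits genes of few UMIs. No paired analysis was possible because each genotype had 1 library and no test was run. The settings without the immunoglobulin barcode, and without it and dividing cells, were chosen after seeing the data. Ratios of 4 named genes turned, each from a few UMIs: Top2a (log2 VC over FLOX) to 1.06 with at most 5% mitochondrial UMIs, and, without that barcode and dividing cells, Stmn1, Pclaf and Hist1h3c (VC over WT) to 0.28, 0.28 and 0.86. The cause of the shifts was not tested.

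Genes called higher in VC numbered 95, and 60 with Jchain below 5 or without the immunoglobulin barcode, 54 without dividing cells as well, 63 without cells holding 3 UMIs of other blood cells, 7 at 200 CPM or more, 977 with no CPM minimum, 19 at 2-fold and 15 with intervals apart. Genes called lower numbered 85, and 139 with each cell weighted alike, 1 at 200 CPM or more, 1313 with no minimum, 16 at 2-fold and 1 with intervals apart. Scaling by the median of ratios moved all genes by 0.09 for VC over WT, -0.13 for VC over FLOX and 0.22 for FLOX over WT on the log2 scale.

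The summed class II list stood at 0.94 for VC over WT and 0.85 for FLOX over WT. VC over WT came to 1.09 with at most 5% mitochondrial UMIs, 1.05 with each cell weighted alike, 1.03 by median of ratios, 0.28 in Ighd cells without Cd93, 1.56 in Cd93 cells and 1.05 without the barcode and dividing cells. FLOX over WT came to 1.02 with Jchain below 5, without the immunoglobulin genes or without the barcode, 1.14 with cells alike, 1.07 by median of ratios, 0.32 and 1.43 in the same cell states, and 1.18 without dividing cells as well. At 5% mitochondrial UMIs the mature list was at 0.64 and the immature list at -0.68 for VC over WT, against 0.53 and -0.54. Without cells holding RNA of other blood cells the mature list was at 0.69, and B cells were 0.718% of WT. The interferon lists for VC over FLOX were at 0.96 in Ighd cells, against 1.32.

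The share of cells with a Cd93 UMI came to 25.97% in WT and 14.5% in FLOX at 1000 UMIs, to 56.5%, 50% and 36% at 4000, and without thinning to 58.4% in WT and 33.3% in VC. The share with an interferon-list UMI came to 72.7% in WT and 69.7% in FLOX at 1000 UMIs, to 97.8%, 100% and 100% at 4000, and to 98.7%, 94.7% and 100% without thinning.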
